A study of Mus musculus with 40 samples.

Results

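Changes in transcript levels between 1 and 4 weeks of age were compared between the lung and the heart of male C57BL/6 mice. For each gene the comparison took the log2 change in lung, 4 weeks over 1 week, minus the same change in heart. A positive difference therefore means that the transcript rose more, or fell less, in lung than in heart. The comparison used 18 of the 40 arrays of the series: 5 of lung at 4 weeks, 4 of lung at 1 week, 5 of heart at 4 weeks and 4 of heart at 1 week. It left out 2 further arrays labelled as 1-week lung and 1-week heart, which carried transcripts of the other organ. The labels name no mutation, transgene or treatment, and by them the groups differ in organ and age. They call both organs rapidly proliferating at 1 week and slowly proliferating at 4 weeks. Each array measured total RNA of a whole organ as biotin-labelled cRNA on an Affymetrix mouse array, with a linear signal for each probe set, and 1 probe set stood for each gene. In such bulk samples, fewer cells of a type and less RNA per cell cannot be told apart.

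Mouse organs grow fast after birth and slow down over the following weeks, and transcripts of the cell cycle and of fetal growth genes decline in several organs together as this happens. Each organ also matures in its own way over the same time. Heart muscle cells stop dividing, enlarge, exchange fetal isoforms of sarcomere proteins for adult ones and come to rely on mitochondrial oxidation of fatty acids. The lung divides its air sacs into alveoli by raising septa rich in elastin and myofibroblasts, thins the septal wall afterwards, and gains airway, detoxifying and immune functions.

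The 2 arrays left out went against their labels. On the array labelled 1-week lung replicate 4 the signal of Myh6, the heart muscle myosin gene, was 36022, against 611 to 1868 on the other 1-week lung arrays. The array labelled 1-week heart replicate 5 had a signal of 27187 for Sftpc, a surfactant protein gene of lung epithelium, and the remaining 1-week hearts had 125 to 1072. Signals of the labelled organ were low on both arrays. Myh6 was 2396 on the heart-labelled array, against at least 36521 on the remaining 1-week hearts. Sftpc was 1982.5 on the lung-labelled array, against at least 23328 on the other 1-week lungs. Results given as labelled include both arrays under their labels. Among the 18 arrays used, the summed signal of 11 lung epithelial markers was 160997 to 248092 in lung at 4 weeks, 154955 to 187233 in lung at 1 week, 1138 to 4117 in heart at 4 weeks and 1374 to 3877 in heart at 1 week. The summed signal of 12 heart muscle markers was 7618 to 16815 in lung at 4 weeks, 5468 to 14139 in lung at 1 week, 438628 to 540110 in heart at 4 weeks and 338328 to 420332 in heart at 1 week. Markers thus matched the labelled organ on all 18 arrays, with traces of the other organ at both ages. The highest traces of lung among hearts were on 4-week replicate 3 and 1-week replicate 2. Heart replicate 1 at both ages had the highest poly-A control signals and the lowest median signals. The summed signal of 12 skeletal muscle markers was 737 to 1248 in lung at 4 weeks and 989 to 10719 in lung at 1 week, with replicates 3 and 5 the highest. Where leaving out these arrays took away the call of a gene shown array by array, this is given beside it. With 4 or 5 arrays a group, precision is limited by their number.

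The change from 1 to 4 weeks differed between the organs, by the test, for about 1 gene in 6. The fit was made with limma on log2(signal + 16), in which the offset shrinks the changes of dim genes, and a gene was called at a Benjamini-Hochberg adjusted p under 0.05. Of 14252 genes tested, the change differed between lung and heart for 2486, or 17.4%. The difference was positive for 1376 (9.65%) and negative for 1110 (7.79%). In lung 1926 genes rose and 2038 fell, 13.5% and 14.3% of those tested. In heart 1905 rose and 2551 fell, 13.4% and 17.9%. In both organs 697 rose (4.89%) and 1041 fell (7.3%), and the counts of each gene list are to be read against these shares. With all 20 arrays as labelled, 1746 differences were called, of which 1547 were also called in the same direction by the 18 arrays, and 667 were negative. Without 1-week lung replicates 3 and 5, 1635 differences and 2469 changes in lung were called.

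Most called differences came from genes that changed in 1 organ without a call in the other. Of the 2486, 501 rose in lung (3.52% of genes tested) and 297 fell in lung (2.08%) without a call in heart. A further 532 rose in heart (3.73%) and 520 fell in heart (3.65%) without a call in lung. Opposite directions were called for 255 genes, 142 of which rose in lung and fell in heart (0.996%), while 113 fell in lung and rose in heart (0.793%). With all 20 arrays as labelled 123 genes had opposite directions, and 127 did without the 2 lung arrays with skeletal muscle signal. In 78 genes (0.547%) the rise was larger in lung and in 62 (0.435%) it was larger in heart. In 61 (0.428%) the fall was larger in lung and in 75 (0.526%) it was larger in heart, and 105 (0.737%) were called in neither organ alone. Over all genes tested, the correlation of the changes in lung with those in heart was 0.44 (Pearson) across genes, which share arrays and are not independent. Median changes over all genes were -0.01 in lung and -0.04 in heart, and the median difference was 0.03.

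Lung and heart stood further apart at 4 weeks than at 1 week. The log2 gap between the organs had an SD across all genes tested of 1.34 at 4 weeks and 1.16 at 1 week. Its median size was 0.59 at 4 weeks and 0.47 at 1 week. The gap was wider at 4 weeks for 9166 of the 14252 genes (64.3%), and for 1951 of the 2486 called genes (78.5%). These are descriptions with no test.

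**Figure D1:**
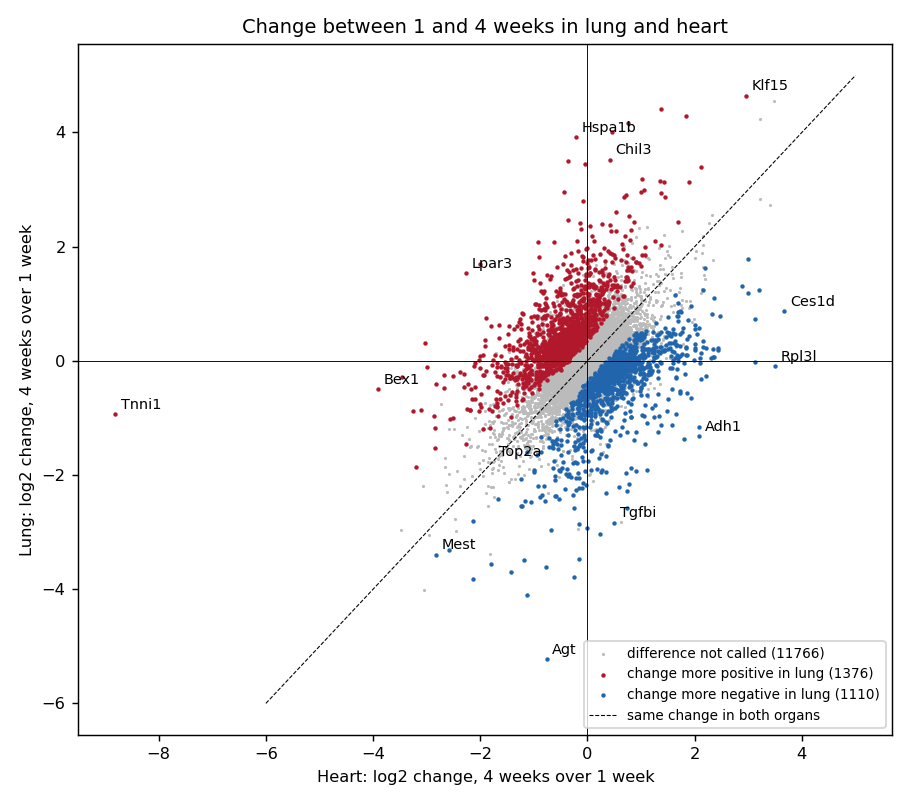
Each point is a gene. The vertical axis gives its log2 change in lung and the horizontal axis its log2 change in heart, 4 weeks over 1 week. Red and blue points are the 1376 and 1110 genes with a positive and a negative called difference, and the dashed line marks equal change. Coloured points form a band on each side of that line, and Tnni1 stands alone at the far left.

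Most genes of mitochondrial energy metabolism rose in heart, with smaller changes in lung. Of 49 tested genes of oxidative phosphorylation and the citrate cycle, 1 rose and 6 fell in lung, while 44 rose and none fell in heart. The change was more negative in lung for 36 of the 49 members and more positive for none, against 7.79% and 9.65% of all genes, and the median difference was -0.63. With the 20 arrays as labelled the median was -1.58, but the spread was wider and 3 of the 49 were called. In the other alternatives, which include leaving out each array, between 23 and 43 members were called negative and at most 1 positive.

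Citrate synthase (Cs) catalyses the first step of the citrate cycle. Its signals were 2756, 2261, 2352, 2592 and 2407 in lung at 4 weeks, against 3784, 3179, 3630.0 and 3591 in lung at 1 week. Heart signals of Cs were 31104, 35258, 30069, 29158 and 35415 at 4 weeks, against 23742, 20348, 19702 and 22386.5 at 1 week. The ages did not overlap in either organ, as in lung for 32.3% and in heart for 22.4% of all genes tested. The gene fell in lung by 0.52 and rose in heart by 0.58 on the log2 scale. The difference of -1.10 ± 0.13 (SE) had an adjusted p of 2.75e-05. Cox7a1 encodes the muscle form of a cytochrome c oxidase subunit. It was dim in lung, at 245, 173, 161, 239 and 238 at 4 weeks and 237, 137, 219 and 101 at 1 week. In heart its signals were 28862, 29666, 29070.5, 25763 and 30669 at 4 weeks, against 11764, 8996, 9349 and 10405 at 1 week. The rise in heart was 2.85-fold, all 4-week hearts lay above all 1-week hearts, and the difference was -1.20 ± 0.27 (adjusted p = 0.00529). Among further members, the difference was -1.13 ± 0.23 for Atp5g1, an ATP synthase subunit, -1.13 ± 0.21 for Idh3a, an isocitrate dehydrogenase subunit, and -0.91 ± 0.13 for Cycs, cytochrome c, each called with an adjusted p of at most 0.00239. As labelled, the differences of Cs (-2.13, adjusted p = 0.051), Cox7a1 (-3.51, 0.13) and Atp5g1 (-2.70, 0.095) were not called, while Idh3a and Cycs were called at -2.09 and -1.67. Atp5g1 had -0.70 with the mean of its probe sets and Cycs -0.59 with quantile normalization.

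Of 30 tested genes of fatty acid oxidation and ketone use, 14 rose and 3 fell in heart, against 13.4% and 17.9% of all genes. In lung 3 rose and 4 fell, no larger a share than the 13.5% and 14.3% of all genes. The difference was negative for 9 (30%, against 7.79% of all genes) and positive for 3 (10%, against 9.65%), with a median of -0.29. As labelled it was negative for 1 and positive for 2. Oxct1, the enzyme that lets tissues burn ketone bodies, had signals of 3566, 3232, 3408, 3014 and 3358 in lung at 4 weeks and 3388, 2647.5, 4017.5 and 3303 in lung at 1 week. Heart signals of Oxct1 were 31605, 35621, 31499.8, 29303 and 36734 at 4 weeks, against 14555, 9654, 7801 and 9714 at 1 week. Lung signals overlapped between ages and heart signals did not. The rise in heart was 3.23-fold, and the difference of -1.69 ± 0.21 had an adjusted p of 3.74e-05. Ppara, the nuclear receptor that drives fatty acid oxidation genes, had a difference of -0.95 ± 0.22 (adjusted p = 0.00712), which was not called as labelled (-1.84, adjusted p = 0.059) or with the mean of its probe sets (0.058). Ech1, a fatty acid oxidation enzyme, had one of -0.91 ± 0.15 (adjusted p = 0.000549; -1.90 as labelled, adjusted p = 0.067). Angptl4, a secreted inhibitor of lipoprotein lipase, went the other way: its log2 change was 0.33 in lung and -1.15 in heart, with a difference of 1.49 ± 0.35 (adjusted p = 0.0076).

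Of 20 tested genes of glucose uptake and glycolysis, 3 rose and 1 fell in lung, and 8 rose and 2 fell in heart. The difference was negative for 3 and positive for 1, and this 20% is near the 17.4% of all genes. Slc2a4, the insulin-responsive glucose transporter GLUT4, had signals of 432, 315, 298, 386 and 352 in lung at 4 weeks and 339.8, 283, 421.5 and 428 in lung at 1 week. Heart signals of Slc2a4 were 6329.5, 11336, 9935.5, 10025 and 10809 at 4 weeks, against 2142, 2602, 3125.5 and 3183 at 1 week. Heart replicate 1 at 4 weeks was the lowest of its group and still above every 1-week heart. The difference was -1.83 ± 0.25 (adjusted p = 9.01e-05), and it was -3.01 as labelled. Pfkm, the muscle phosphofructokinase, and Hk2, a hexokinase, had differences of -0.95 ± 0.14 and -0.94 ± 0.20 (adjusted p = 0.000208 and 0.00381). Neither was called as labelled (-2.13 with adjusted p = 0.080, and -1.99 with 0.072), and Hk2 was not called in the fit of 38 arrays (adjusted p = 0.060). Aldoc, an aldolase, was the member with a positive difference, at 1.57 ± 0.35 (adjusted p = 0.00512).

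**Figure D2:**
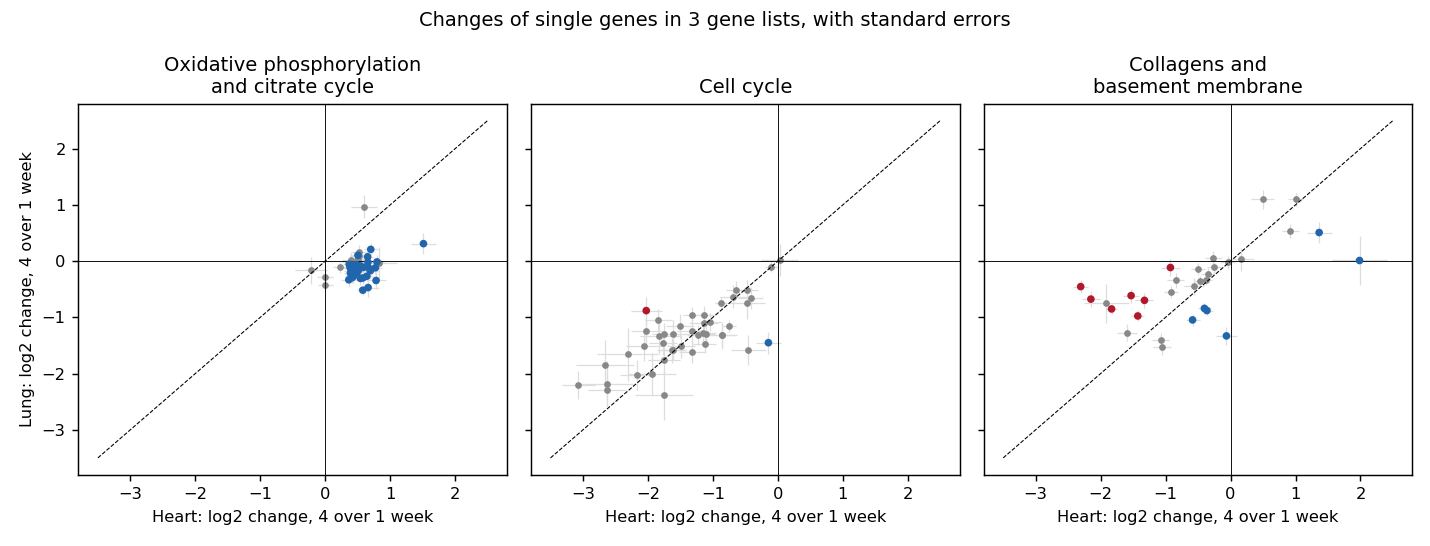
Each point is a gene of 1 of 3 lists, placed by its log2 change in lung (vertical) and in heart (horizontal), 4 weeks over 1 week, with standard errors as grey lines. Coloured points have a called difference (red positive, blue negative), grey points do not, and the dashed line marks equal change. Oxidative phosphorylation genes cluster near 0 in lung and right of 0 in heart, cell cycle genes lie along the line in the lower left, and collagen genes scatter on both sides of it.

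Tnni1 and Myh7, genes of the fetal sarcomere, fell in heart. Tnni1 encodes the slow skeletal troponin I that the fetal heart uses before the adult cardiac form, Tnni3, takes over. Its signals were 10.2, 10.7, 7.7, 8.6 and 15.3 in lung at 4 weeks and 10.4, 28.5, 27.5 and 112 in lung at 1 week. Heart signals of Tnni1 were 22.5, 29.3, 16.6, 25.6 and 41.1 at 4 weeks, against 17264, 17501, 19287 and 22089 at 1 week. The heart ages were far apart, the lung ages overlapped, and all signals other than those of the 1-week hearts were under 117.9, the 40th percentile of all deposited values, and so near the background. The size of the change is therefore uncertain, and no fold is given. The difference was 7.87 ± 0.43 (adjusted p = 6.2e-09), and 7.94 and 7.25 with offsets of 1 and 64. As labelled it was 4.85 (adjusted p = 0.12). Tnni3 changed by 1.05 in lung and 0.66 in heart, with no called difference (adjusted p = 0.437).

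Myh7, the slow myosin heavy chain of fetal heart, had signals of 295, 236, 364, 295 and 399 in lung at 4 weeks and 451, 246.5, 544 and 623 in lung at 1 week. Heart signals of Myh7 were 801, 875, 840.2, 808 and 728 at 4 weeks, against 1182, 9007, 8727 and 8297 at 1 week. Heart replicate 1 at 1 week lay far below its 3 companions, though still above every 4-week heart. The difference was 2.21 ± 0.63 (adjusted p = 0.023), and 2.92 without 1-week heart replicate 1. The call was lost without 1-week heart replicate 2 (adjusted p = 0.053), 3 (0.052) or 4 (0.051), without 1-week lung replicate 2 (0.054), without the 2 hearts with the highest traces of lung (0.070), and as labelled (0.70, adjusted p = 0.71). Of 16 tested genes of the fetal sarcomere and cardiac stress list, 2 rose and 6 fell in lung, against 13.5% and 14.3% of all genes. In heart none rose and 4 fell, against 13.4% and 17.9%. The difference was positive for 3 and negative for 3, or 18.75% each, against 9.65% and 7.79%. Apart from the arrays as labelled, the alternatives gave 2 to 4 positive and 1 to 5 negative. The median was 0.29, and -1.06 as labelled.

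Acta1, skeletal actin, was a negative member whose high lung values stood on 2 arrays. Its signals were 207.5, 188, 97.7, 126 and 127 in lung at 4 weeks, against 162, 229.5, 5182 and 3718 in lung at 1 week. Heart signals of Acta1 were 5312, 6742, 4748, 4832 and 5226 at 4 weeks and 3214, 3381, 3368.5 and 2820.3 at 1 week. Those arrays, 1-week lung replicates 3 and 5, were the ones with the highest skeletal muscle marker sums. Of 11 tested skeletal muscle markers, 6 fell in lung and none rose, and 1 difference was called, against 17.4% of all genes (median -1.15). The difference of Acta1 was -3.32 ± 1.04 (adjusted p = 0.0366). Leaving out both arrays gave -1.12, which was still called. Leaving out only 1-week lung replicate 3 or only replicate 5 lost the call, at -2.51 and -2.67 (adjusted p = 0.0694 and 0.0786). The call was also lost without 1-week heart replicate 2, 3 or 4, 4-week heart replicate 2 or 5, or 4-week lung replicate 3, 4 or 5 (adjusted p = 0.0517 to 0.062). Leaving out the 2 hearts with the highest traces of lung (-3.39, adjusted p = 0.0721) or heart replicate 1 at both ages (-3.33, 0.0591) lost it too. The part of skeletal muscle in this result was not tested.

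Of 34 tested genes of adult cardiac contraction and conduction, 6 rose and 5 fell in lung, near the 13.5% and 14.3% of all genes. In heart 12 rose and 2 fell, against 13.4% and 17.9%. The difference was negative for 9 (26.5%, against 7.79%) and positive for 2 (5.88%, against 9.65%), with a median of -0.52. As labelled 5 were negative and none positive (median -2.12). Kcne1 is the accessory subunit of the slow delayed rectifier potassium channel. Its signals were 7.9, 4.5, 6.7, 9.0 and 9.0 in lung at 4 weeks and 8.7, 7.0, 14.4 and 7.6 in lung at 1 week, near the background. Heart signals of Kcne1 were 855, 447, 794, 414 and 518 at 4 weeks, against 4260.1, 4079, 4979 and 5671 at 1 week. It fell 7.93-fold in heart, with no overlap between ages. The difference was 2.87 ± 0.26 (adjusted p = 1.51e-06), and -0.18 as labelled (adjusted p = 0.96). Kcnd2, a channel of the transient outward potassium current, did the opposite. Its lung signals were 27.8, 42.2, 34.8, 4.7 and 37.9 at 4 weeks and 9.8, 33.2, 4.6 and 57.4 at 1 week, while its heart signals were 1145, 923, 1174, 1024 and 1347 at 4 weeks, against 136, 286, 245 and 191 at 1 week. Its lung signals overlapped and it rose 5.06-fold in heart. The difference was -2.14 ± 0.49 (adjusted p = 0.00569), with an adjusted p of 0.14 when the offset was 1. Kcnv2, a silent potassium channel subunit, had a difference of -1.64 ± 0.34 (adjusted p = 0.00296) from a rise of 1.72 in heart.

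Rpl3l, the muscle form of ribosomal protein L3, rose in heart and was not called in lung. Its signals were 10, 25.2, 15.5, 37.8 and 29.7 in lung at 4 weeks and 12.4, 36.8, 32.2 and 22.4 in lung at 1 week. Heart signals of Rpl3l were 6025, 5933, 4268, 4445 and 5201 at 4 weeks, against 521, 348, 407 and 487 at 1 week. Lung stayed near the background at both ages, and heart rose 11.4-fold without overlap. The difference was -3.60 ± 0.30 (adjusted p = 7.22e-07). Of 18 tested genes for ribosomal proteins of all cells, the difference was called for 1, Rps2, at -0.71 ± 0.16 (-0.38 with quantile normalization).

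Other transcripts lost by the maturing heart while lung moved little gave several of the largest positive differences. Bex1, a small protein of the nervous system, had a signal of 549 to 754 in lung at 4 weeks, against 773 to 1180.5 in lung at 1 week. In heart it was 341 to 413 at 4 weeks, against 5169 to 6447 at 1 week. It fell by 0.50 in lung and fell by 3.91 in heart on the log2 scale, so the difference was 3.41 ± 0.19 (adjusted p = 6.2e-09). Cited1, a transcriptional coregulator of embryonic tissues, had at most 15.6 in lung, and 19.5 to 30.5 in heart at 4 weeks, against 321 to 679.6 in heart at 1 week. Its difference was 3.17 ± 0.23 (adjusted p = 1.46e-07; 1.41 as labelled, adjusted p = 0.43). Mt3, a metallothionein, had a difference of 3.33 ± 0.65 (adjusted p = 0.002; 1.58 as labelled, adjusted p = 0.43). Aldh1a2, which makes retinoic acid in the embryo, changed by 0.01 in lung and -2.02 in heart, a difference of 2.03 ± 0.22 (adjusted p = 1e-05; 1.38 as labelled, adjusted p = 0.062).

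**Figure D3:**
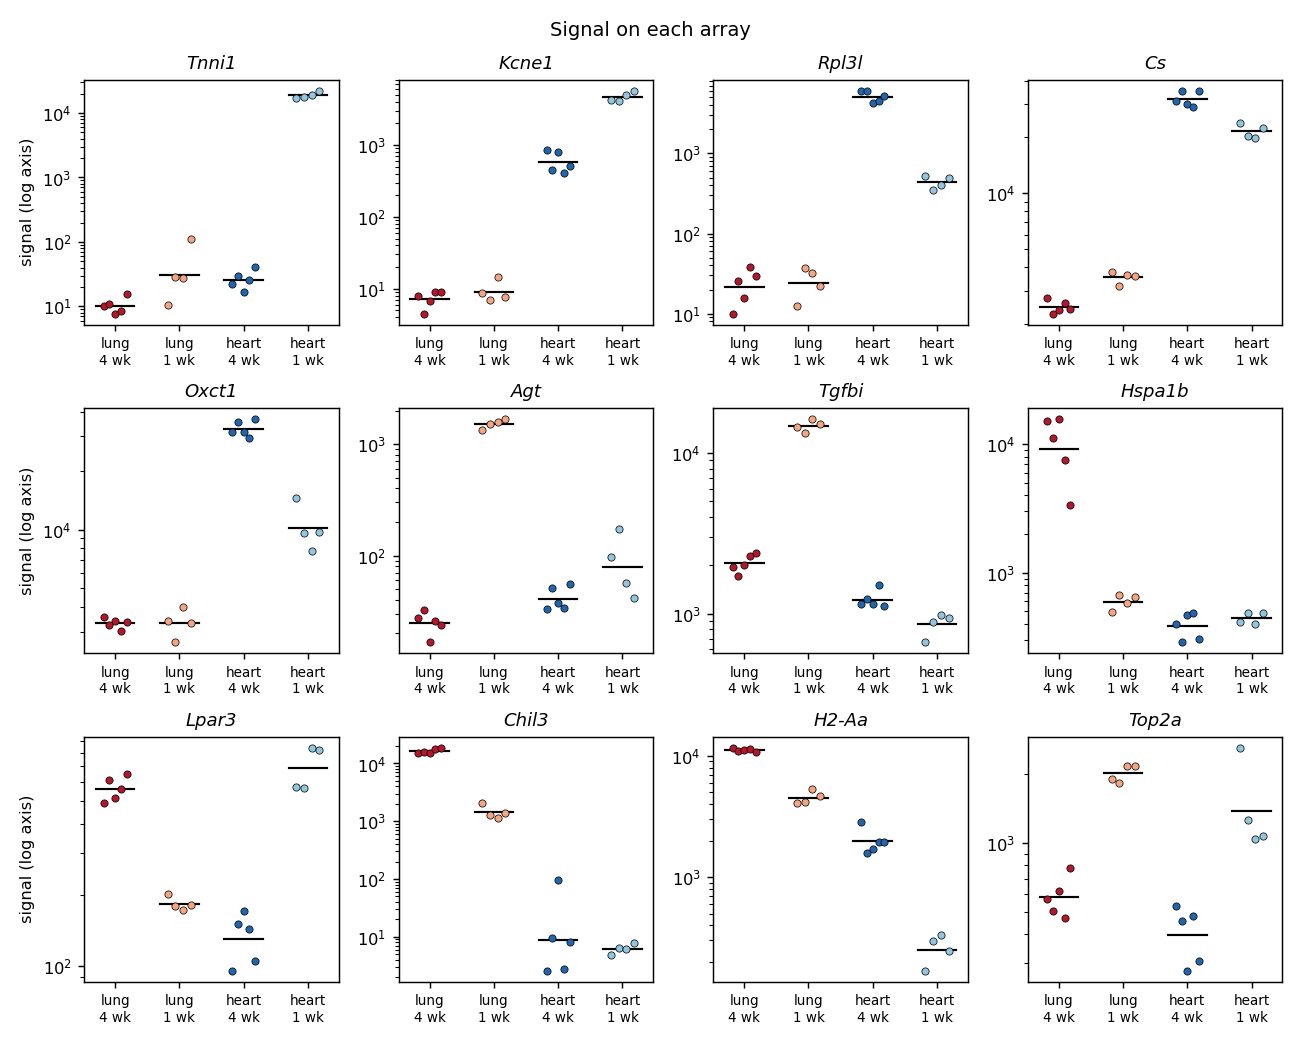
Signal of 12 genes on each of the 18 arrays, on a log axis, in lung at 4 and 1 weeks and heart at 4 and 1 weeks. Points are arrays and bars are geometric means. Agt and Tgfbi fell in lung, Tnni1 and Kcne1 fell and Rpl3l, Cs and Oxct1 rose in heart, Lpar3 moved in opposite directions, and Top2a fell in both organs.

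Several of the largest negative differences were of transcripts that fell in lung. Agt encodes angiotensinogen, the precursor of angiotensin. Its signals were 27.7, 32.2, 16.7, 25.9 and 23.8 in lung at 4 weeks, against 1327, 1515, 1566 and 1670.0 in lung at 1 week. Heart signals of Agt were 32.9, 51.0, 37.7, 33.5 and 55.4 at 4 weeks and 96.2, 172.5, 56.6 and 41.8 at 1 week. The lung ages were separate, with the 4-week lungs near the background, so that the size of the fall is uncertain. The difference was -4.47 ± 0.35 (adjusted p = 3.47e-07), -4.95 with an offset of 1, and -2.71 as labelled (adjusted p = 0.14). Tgfbi, a matrix protein induced by transforming growth factor beta, had signals of 1959, 1722, 2005, 2289.6 and 2379.5 in lung at 4 weeks, against 14589.5, 13348, 16210.0 and 15195 in lung at 1 week. Heart signals of Tgfbi were 1146, 1227, 1153, 1503 and 1117.5 at 4 weeks, against 665, 891.5, 975 and 947 at 1 week. Lung fell 7.15-fold while heart rose 1.41-fold, without overlap in either organ. The difference was -3.34 ± 0.18 (adjusted p = 6.2e-09; -1.74 as labelled, adjusted p = 0.27). Trim67, a ubiquitin ligase, Slc17a2, a phosphate transporter, and Opcml, a cell adhesion molecule, also fell in lung, with at most 100.7 at 4 weeks, against at least 269.7 at 1 week, and their differences were -3.54 ± 0.40, -3.31 ± 0.23 and -3.26 ± 0.28. None of these 3 was called as labelled (-1.94, -1.84 and -2.15, with adjusted p = 0.24, 0.22 and 0.073).

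Many genes of alveolar septation and elastic fibres fell in both organs, but the members differed in where they fell most. Of 23 tested, 14 fell and 2 rose in lung, 15 fell and 1 rose in heart, and 12 fell in both. Of all genes tested, 7.3% fell in both. The difference was positive for 6 and negative for 4, against 9.65% and 7.79% of all genes, with a median of -0.28 (0.26 as labelled). Eln, elastin, had signals of 5691, 7022, 6614, 6396 and 8043 in lung at 4 weeks, against 22132, 18935, 16045 and 20412 in lung at 1 week. Heart signals of Eln were 2439, 1809, 2067, 2355 and 1959 at 4 weeks, against 19362, 15660.1, 15716 and 11422 at 1 week. Both organs fell without overlap, lung 2.86-fold and heart 7.18-fold. The difference was 1.33 ± 0.21 (adjusted p = 0.00029). Lox, the enzyme that cross-links elastin and collagen, changed by -0.25 in lung and -1.94 in heart, a difference of 1.69 ± 0.27 (adjusted p = 0.000419).

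Genes of smooth muscle, pericytes and fibroblasts differed in both directions. Of 19 tested, 3 rose and 7 fell in lung, 4 rose and 8 fell in heart, and the difference was positive for 6 and negative for 5, against 9.65% and 7.79% of all genes. Cnn1, calponin of smooth muscle, changed by -0.19 in lung and -1.89 in heart, a difference of 1.70 ± 0.47 (adjusted p = 0.0188; 0.063 without the 2 heart arrays with airway signal). Acta2, smooth muscle actin, a member of the septation list, had signals of 6849.7, 4913, 7558, 6448.5 and 5488 in lung at 4 weeks, against 20724, 16298, 16802 and 19573 in lung at 1 week. Heart signals of Acta2 were 16884, 13794, 14242, 14194 and 13561.5 at 4 weeks and 15332.5, 13066, 10748 and 16544 at 1 week. The ages were separate in lung and overlapped in heart, and the difference was -1.64 ± 0.20 (adjusted p = 2.93e-05). Actg2, enteric smooth muscle actin, changed by -2.15 in lung and -0.07 in heart, a difference of -2.07 ± 0.24 (adjusted p = 2.09e-05; -1.44 as labelled, adjusted p = 0.055). Rgs5, a pericyte gene, fell by 1.39 in lung and rose by 0.42 in heart on the log2 scale, a difference of -1.81 ± 0.16 (adjusted p = 9.18e-07), and -3.002 as labelled. Fgf18, a growth factor of alveolar myofibroblasts, had signals of 205, 194, 152, 232 and 172 in lung at 4 weeks, against 713, 822, 787 and 805.5 in lung at 1 week. Heart signals of Fgf18 were 166, 154, 192, 171 and 152 at 4 weeks and 282, 116.5, 189 and 211 at 1 week. Only the lung ages were separate. The difference was -1.77 ± 0.24 (adjusted p = 8.9e-05; -1.07 as labelled, adjusted p = 0.17).

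Other fibroblast genes rose in lung. Inmt, an amine methyltransferase of lung fibroblasts, had signals of 19916.5, 24255, 26066, 29135 and 27403 in lung at 4 weeks, against 1583, 1633, 790.3 and 886 in lung at 1 week. Heart signals of Inmt were 213, 312, 382, 400.5 and 492 at 4 weeks and 92.6, 291, 136 and 59.1 at 1 week. Lung rose 21.4-fold without overlap, and heart rose 2.60-fold with overlap. The difference was 3.04 ± 0.47 (adjusted p = 0.000275). Pdgfra, the platelet-derived growth factor receptor of fibroblasts and myofibroblast precursors, had signals of 6213, 6195, 6939, 6180.3 and 6827 in lung at 4 weeks, against 2104.5, 2540.3, 2831 and 2579 in lung at 1 week. Heart signals of Pdgfra were 1301, 819, 907.5, 1122 and 1556 at 4 weeks and 1017, 1697, 1543 and 1376 at 1 week. It rose in lung and overlapped in heart, and the difference was 1.68 ± 0.24 (adjusted p = 0.000145), or 1.10 with the mean of its probe sets. Over the list of smooth muscle, pericyte and fibroblast genes, 19 were tested and the difference was positive for 6 and negative for 5 (median 0.36, and -0.02 as labelled).

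Many collagen and basement membrane genes fell in both organs. Of 31 tested, 17 fell and 3 rose in lung, 21 fell and 5 rose in heart, and 16 fell in both, against 7.3% of all genes. The difference was positive for 7 and negative for 6, against 9.65% and 7.79% of all genes (median 0.12). Postn, periostin, a matrix protein of growing connective tissue, had signals of 9654, 11840.5, 11516, 10859 and 12203 in lung at 4 weeks, against 16066, 14615, 14686 and 15932.5 in lung at 1 week. Heart signals of Postn were 4139.5, 2921, 2873.5, 3312 and 2908 at 4 weeks, against 15886, 17528, 13605 and 16830.5 at 1 week. Both fell without overlap, lung 1.37-fold and heart 4.95-fold, with a difference of 1.85 ± 0.16 (adjusted p = 9.68e-07). Col18a1, a basement membrane collagen, and Fn1, fibronectin, likewise fell more in heart, with differences of 1.47 ± 0.20 and 0.98 ± 0.12 (adjusted p = 7.97e-05 and 4.27e-05), and Fn1 had 0.59 with the mean of its probe sets. Col15a1, another basement membrane collagen, fell in lung by 1.33 on the log2 scale and changed by -0.06 in heart, a difference of -1.27 ± 0.23 (adjusted p = 0.00118), or -2.08 as labelled. Col1a1, the main fibrillar collagen chain, fell by 1.27 in lung and by 1.59 in heart, and its difference of 0.32 ± 0.22 was not called (adjusted p = 0.354).

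Airway genes rose in lung. Of 17 tested genes of airway secretory and ciliated cells, 12 rose and none fell in lung, against 13.5% and 14.3% of all genes. In heart 2 rose and 1 fell, against 13.4% and 17.9%. The difference was positive for 6 and negative for none, against 9.65% and 7.79% of all genes (median 0.90). As labelled 3 were positive (median 2.29), and the number was 3 to 11 over the other alternatives. Bpifa1, a secreted airway defence protein, had signals of 8153, 7407.5, 5232, 11663 and 6916 in lung at 4 weeks, against 451, 610.1, 519 and 196 in lung at 1 week. Heart signals of Bpifa1 were 36.3, 14.6, 23.1, 67.6 and 6.8 at 4 weeks and 17.7, 4.5, 6.7 and 7.2 at 1 week. It rose 17.9-fold in lung and was near the background in heart. The difference was 3.41 ± 0.50 (adjusted p = 0.000155). Cyp2b10, a cytochrome P450, had a signal of 4029 to 5041 in lung at 4 weeks, against 231 to 297 in lung at 1 week, and 17.8 to 250.4 in heart over both ages. Its difference was 3.55 ± 0.64 (adjusted p = 0.00101). Scgb1a1, the club cell secretory protein, was bright in lung at both ages and its difference was not called (adjusted p = 0.78).

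Of 15 tested genes of the thin alveolar type 1 cells, 8 rose and none fell in lung, against 13.5% and 14.3% of all genes. In heart 2 rose and 2 fell, against 13.4% and 17.9%. The difference was positive for 6 and negative for none, against 9.65% and 7.79% (median 0.61). As labelled none was called (median 1.33), and the number was 2 to 7 over the other alternatives. Gprc5a lost its call in 18 of 35 other settings. Without the 2 lung arrays with skeletal muscle signal, Gprc5a, Rtkn2 and Aqp5 were not called (adjusted p = 0.166, 0.099 and 0.053). Pdpn, podoplanin, had signals of 3791, 4699.5, 4559, 4605 and 4073 in lung at 4 weeks, against 3450.4, 3180.5, 3055 and 3146 in lung at 1 week. Heart signals of Pdpn were 532, 511, 554.5, 596 and 472 at 4 weeks, against 580.1, 659, 726 and 716 at 1 week. It rose 1.35-fold in lung and fell 1.25-fold in heart, with separate ages in lung and overlap in heart. The difference was 0.75 ± 0.14 (adjusted p = 0.001; 1.598 as labelled, adjusted p = 0.0714). Hopx, a transcriptional cofactor of type 1 cells and of heart muscle, had a difference of 0.63 ± 0.15 (adjusted p = 0.0061), not called as labelled (0.31, adjusted p = 0.44) or with median centring (0.074). Of 19 genes of alveolar type 2 cells and surfactant, the difference was positive for 2 and negative for 2, or 10.5% each, near the 9.65% and 7.79% of all genes. Sftpc itself had a signal of 20101 to 35377 in lung at 4 weeks and 23328 to 28922 at 1 week, and no called difference (adjusted p = 0.79). Lyz1 and Lyz2, the negative members, are lysozymes that macrophages also express. By the probe sets used, both rose in heart (differences -1.60 ± 0.33 and -1.46 ± 0.18). As labelled they were -0.030 and 0.020, neither called, and Lyz1 had -0.87 with the mean of its probe sets. A dimmer probe set of Lyz1 went the other way, with 0.14 in lung, -0.64 in heart and a difference of 0.77. A further one had a difference of -1.79.

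Many xenobiotic and retinoid metabolism genes rose in both organs, with more positive than negative differences. Of 31 tested, 25 rose and 2 fell in lung, 18 rose and 2 fell in heart, and 16 rose in both, against 4.89% of all genes. Called differences were positive for 11 and negative for 4, against 9.65% and 7.79% of all genes (median 0.56). Sult1d1, a sulfotransferase, had a signal of 669 to 1140.2 in lung at 4 weeks, against 64.1 to 105 in lung at 1 week, and at most 30.0 in heart, with a difference of 3.39 ± 0.33 (adjusted p = 2.59e-06). The carboxylesterase Ces1d went the other way, with changes of 0.87 in lung and 3.67 in heart and a difference of -2.80 ± 0.33 (adjusted p = 2.24e-05), or -0.80 as labelled (0.73). Adh1, an alcohol dehydrogenase that also oxidises retinol, moved in opposite directions. Its signals were 6819.9, 7186, 7271.5, 8648 and 7363 in lung at 4 weeks, against 19283, 17274, 17559 and 20552 in lung at 1 week. Heart signals of Adh1 were 1082, 1838, 1802, 1909.9 and 1538 at 4 weeks, against 285, 405, 454.5 and 334 at 1 week. Lung fell 2.5-fold and heart rose 4.26-fold without overlap. The difference was -3.41 ± 0.22 (adjusted p = 3.98e-08), and -1.23 as labelled (0.59).

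Among the genes that moved in opposite directions, Lpar3, a receptor for lysophosphatidic acid, had signals of 492, 610.5, 516, 562 and 653 in lung at 4 weeks, against 202, 179.7, 173 and 180.5 in lung at 1 week. Heart signals of Lpar3 were 95.6, 151, 171, 143 and 105 at 4 weeks, against 573, 569, 839.8 and 825 at 1 week. Each organ's ages were separate and the order was turned round. The difference was 3.81 ± 0.22 (adjusted p = 1.05e-08). Scd2, a fatty acid desaturase active in young tissues, had signals of 13148, 13096, 13100.0, 13715 and 14458 in lung at 4 weeks, against 11044, 9511, 10133 and 11359 in lung at 1 week. Heart signals of Scd2 were 1153, 865, 1161, 1099 and 1217 at 4 weeks, against 3538, 4683, 4548 and 4037 at 1 week. Its rise in lung was 1.29-fold and its fall in heart 3.78-fold. The difference was 2.28 ± 0.15 (adjusted p = 5.16e-08).

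Further genes rose in lung and fell in heart. They were Abca4, a retinoid lipid transporter (difference 3.71 ± 0.45; 2.29 as labelled, adjusted p = 0.14), Fabp1, a fatty acid binding protein (3.01 ± 0.40), Enkur, a ciliary protein (2.64 ± 0.19; 1.69 with an offset of 64), Ntn4, a netrin of basement membranes (2.43 ± 0.30), and Sntb1, a syntrophin of the dystrophin complex (2.42 ± 0.31). In the other direction, Egln3, a prolyl hydroxylase that marks hypoxia-inducible factor, had a signal of 78.0 to 156 in lung at 4 weeks, against 413 to 585 in lung at 1 week. In heart it was 2035 to 3444 at 4 weeks, against 1193 to 1474 at 1 week. The difference was -2.83 ± 0.24 (adjusted p = 9.18e-07). P2ry14, a receptor for UDP-sugars, changed by -2.21 in lung and 0.59 in heart (-2.79 ± 0.16; -1.25 as labelled, adjusted p = 0.42). P2ry2, a receptor for extracellular ATP and UTP (-3.23 ± 0.53; -2.12 with an offset of 64), Myot, a Z-disc protein (-3.17 ± 0.51), and Shisa3 (-3.02 ± 0.27) also fell in lung and rose in heart.

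**Figure D4:**
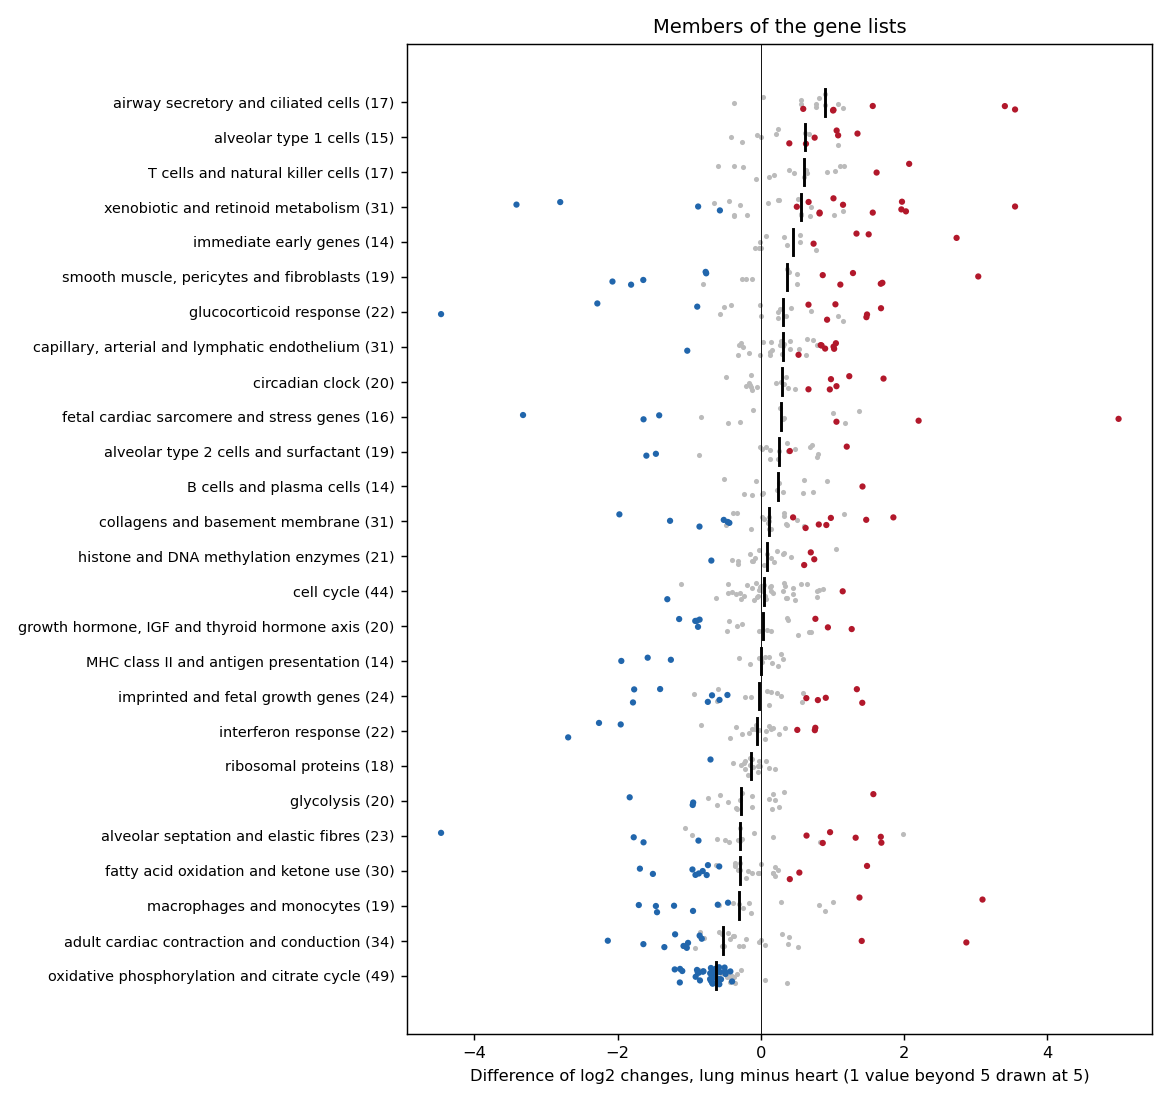
Difference of log2 changes, lung minus heart, of each member of 26 gene lists. Rows are lists with their number of tested members, red and blue points are members called positive and negative, grey points are not called, and black bars are medians. The difference of Tnni1, 7.87, is drawn at 5. Oxidative phosphorylation stands at the bottom with a median of -0.63 and airway cells at the top with 0.90, while the cell cycle lies at 0.04.

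Cell cycle genes fell in both organs. Of 44 tested cell cycle genes, 41 fell in lung and 38 in heart, none rose in either, and 38 fell in both, against 7.3% of all genes. The median change was -1.31 in lung and -1.32 in heart. Differences were called for 2, Aurka and Cenpf, 4.55% of the list against 17.4% of all genes, and the median difference was 0.04. The 95% confidence interval of the difference lay between -1 and 1 for 25 of the 44, and for 64.4% of all genes, so differences of that size remain possible for the others. Top2a, the topoisomerase of dividing cells, had signals of 573, 504, 620.3, 471 and 783 in lung at 4 weeks, against 1909.6, 1825.5, 2179 and 2176 in lung at 1 week. Heart signals of Top2a were 531, 457, 278, 483 and 307 at 4 weeks, against 2608, 1265, 1041 and 1073 at 1 week. Ages were separate in both organs, which fell 3.40-fold and 3.38-fold. The difference was -0.01 ± 0.35 (adjusted p = 0.991). Mki67, the Ki-67 proliferation marker, had signals of 487, 406, 449, 331 and 547 in lung at 4 weeks, against 1539, 1571.5, 2134 and 2100.5 in lung at 1 week. Heart signals of Mki67 were 627, 408, 176, 448 and 238 at 4 weeks, against 3434, 1407, 747 and 972 at 1 week. Heart replicate 1 was the highest of its group at both ages. The difference was -0.07 ± 0.53 (adjusted p = 0.952). Aurka, a mitotic kinase, fell more in heart (1.15 ± 0.34; adjusted p = 0.027), and its call was lost with quantile normalization (0.0621), median centring (0.0754), without 1-week lung replicate 1 (0.054) and without replicates 3 and 5 (0.0627). Cenpf, a kinetochore protein, fell in lung by 1.45 and changed by -0.15 in heart (-1.31 ± 0.28; adjusted p = 0.00371). With the mean of all probe sets neither was called (0.32 for Aurka and -0.26 for Cenpf, adjusted p = 0.394 and 0.623).

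The promoters of these genes were rich in a pair of elements known from cell cycle genes, the CCAAT box bound by NF-Y and the cell cycle homology region (CHR). In the 250 bases before the start of transcription, on either strand, the letters CCAAT occurred in 25 of the 34 cell cycle promoters at hand (73.5%), against 35.7% of 11420 promoters of tested genes. CCAAT was not particular to this list, since it occurred in 64.7% of clock and 50% of glucocorticoid-responsive gene promoters. Its share was 42.9% for adult cardiac, 42.1% for oxidative phosphorylation and 36% for fatty acid oxidation genes. The CHR letters TTTGAA occurred in 9 of the 34 cell cycle promoters (26.5%), against 10.9%. Both are short, so chance matches are common, and a match of one can share at most 1 base with a match of the other. The promoters of Mki67 (chr7:135716380-135716629, minus strand) and Top2a (chr11:99024190-99024439, minus strand) hold both elements and are shown from RefSeq, build GRCm38.p6, with each match in either orientation in capitals:
Mki67: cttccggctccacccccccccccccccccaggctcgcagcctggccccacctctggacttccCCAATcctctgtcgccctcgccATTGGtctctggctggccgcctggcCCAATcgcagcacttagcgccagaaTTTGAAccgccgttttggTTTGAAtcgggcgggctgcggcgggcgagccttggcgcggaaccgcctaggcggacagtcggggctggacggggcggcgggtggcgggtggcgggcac
Top2a: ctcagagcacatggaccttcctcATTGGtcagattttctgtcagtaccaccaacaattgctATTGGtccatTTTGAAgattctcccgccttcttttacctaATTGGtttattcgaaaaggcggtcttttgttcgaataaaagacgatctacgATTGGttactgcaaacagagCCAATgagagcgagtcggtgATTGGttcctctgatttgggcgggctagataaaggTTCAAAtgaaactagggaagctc
In both promoters CCAAT occurs several times, either as written or as its reverse complement ATTGG. Matches are a description of the letters and were not tested as binding sites.

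Imprinted and fetal growth genes fell in both organs, but by unequal amounts. Of 24 tested, 19 fell and none rose in lung, 19 fell and none rose in heart, and 17 fell in both. By the test, the difference was positive for 5 and negative for 7, 50% of the members against 17.4% of all genes, and the median was -0.03. As labelled 2 were positive and 4 negative. Igf2, the fetal insulin-like growth factor, had signals of 345.5, 442, 407, 429 and 394 in lung at 4 weeks, against 1260.0, 1339.6, 1988 and 2162 in lung at 1 week. Heart signals of Igf2 were 1841.5, 1815, 2605, 2445 and 2858 at 4 weeks, against 10879, 13708, 16002.5 and 14758 at 1 week. Lung fell 3.96-fold and heart 5.99-fold, and the difference of 0.60 ± 0.25 was not called (adjusted p = 0.116). Mest, an imprinted gene of mesoderm, had signals of 799.8, 810.3, 773, 756 and 724.5 in lung at 4 weeks, against 7691, 8715, 8689 and 8086 in lung at 1 week. Heart signals of Mest were 1695, 1396.5, 1316.5, 1362 and 1159 at 4 weeks, against 9669.6, 9279.6, 9221 and 11215 at 1 week. The falls were 10.5-fold in lung and 7.07-fold in heart, and replicates were tight enough for a call at -0.58 ± 0.14 (adjusted p = 0.00912). Quantile normalization gave -1.13.

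The members with larger differences divided between the organs. Plagl1, an imprinted zinc finger gene that regulates other imprinted genes, had signals of 6140.2, 6814, 6651, 6545 and 5981 in lung at 4 weeks, against 10095, 10893.5, 11826 and 13277 in lung at 1 week. Heart signals of Plagl1 were 3415, 1999.7, 4061, 3711 and 3389 at 4 weeks, against 15481, 17093, 13903 and 15479 at 1 week. It fell more in heart, with a difference of 1.42 ± 0.22 (adjusted p = 0.000287). Dlk1, an imprinted inhibitor of differentiation, fell more in lung. Its signals were 119, 105, 141, 154 and 83.0 in lung at 4 weeks, against 1070.0, 1312.5, 1867 and 2281 in lung at 1 week, and in heart 119, 195, 214, 261 and 199 at 4 weeks, against 342, 716, 1063.5 and 938.5 at 1 week. The ages were separate in both organs. The difference was -1.77 ± 0.42 (adjusted p = 0.0075), and -1.37 without the 2 lung arrays with skeletal muscle signal (0.065) and -1.23 as labelled (0.13). Mycn, a growth transcription factor of the embryonic lung, had a difference of -1.78 ± 0.29 (adjusted p = 0.000495; -0.74, adjusted p = 0.194, with the mean of its probe sets). Ptn, the growth factor pleiotrophin, had one of 1.34 ± 0.30 (adjusted p = 0.00527; 0.36 as labelled, adjusted p = 0.77).

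The growth hormone and IGF axis differed at its receptor. Ghr, the growth hormone receptor, had signals of 2569.7, 2322, 2257, 2506 and 2170.0 in lung at 4 weeks, against 3363.5, 3185, 3720.5 and 3797 in lung at 1 week. Heart signals of Ghr were 6176, 4228, 4232, 3720.4 and 4338 at 4 weeks and 4373.5, 3727, 2326 and 2142 at 1 week. It fell 1.48-fold in lung without overlap and rose 1.49-fold in heart with overlap. The difference was -1.14 ± 0.26 (adjusted p = 0.00575), and other probe sets of Ghr gave -0.48 and -1.20. Igf1, the growth factor induced by growth hormone, had signals of 1598, 1583, 1559, 1089 and 1228 in lung at 4 weeks, against 4465, 3657, 3597 and 3672 in lung at 1 week. Heart signals of Igf1 were 1792, 1186, 1584, 1713 and 1443 at 4 weeks and 2731, 2911, 1691.5 and 2004 at 1 week. It fell more in lung (-0.88 ± 0.24; adjusted p = 0.0171), but not with a call as labelled (-0.54, adjusted p = 0.25) or with the mean of its probe sets (-0.57, 0.0887). Igfbp3, an IGF binding protein, rose more in lung (1.27 ± 0.20; adjusted p = 0.000265), and Irs1, an adaptor of the insulin and IGF receptors, fell in lung and not in heart (-0.91 ± 0.19; adjusted p = 0.00326). Over 20 tested genes of this list the difference was positive for 3 and negative for 5, against 9.65% and 7.79% of all genes (median 0.03).

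**Figure D5:**
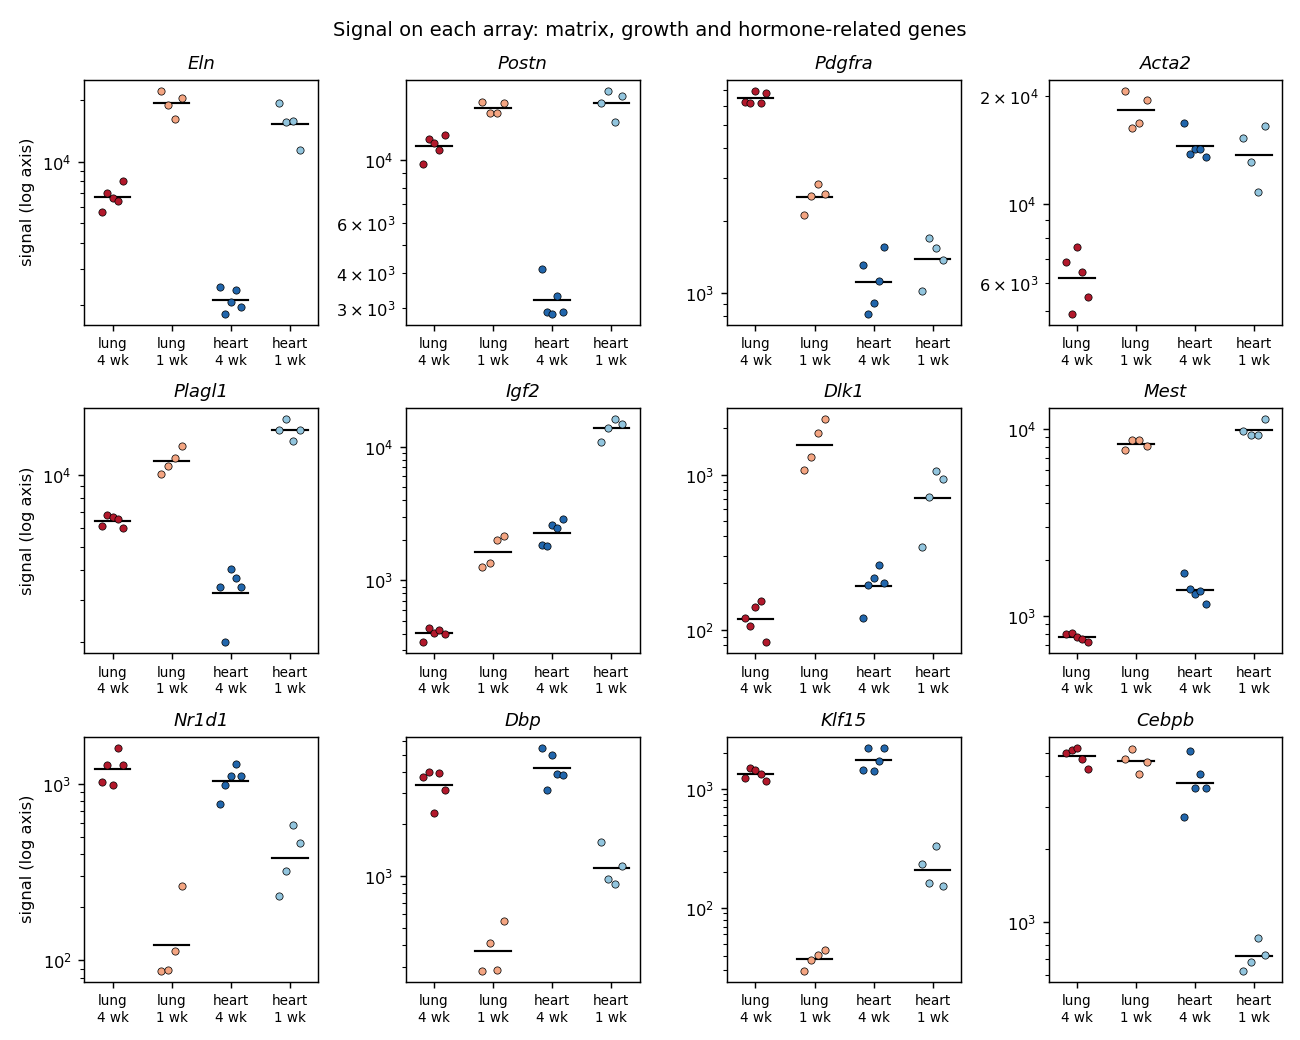
Signal of 12 matrix, growth and hormone-related genes on each of the 18 arrays, on a log axis, in lung at 4 and 1 weeks and heart at 4 and 1 weeks. Points are arrays and bars are geometric means. Eln, Postn and Plagl1 fell more in heart and Dlk1 more in lung, while Nr1d1, Dbp and Klf15 rose more in lung and Cebpb rose in heart and was not called in lung.

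Many clock genes rose in both organs, and called differences were all positive. Of 20 tested circadian clock genes, 13 rose and 3 fell in lung, 11 rose and 3 fell in heart, and 11 rose in both. Of all genes tested, 4.89% rose in both. Called differences were positive for 6 and negative for none, against 9.65% and 7.79% of all genes (median 0.30), and 2 were positive as labelled. Nr1d1, the clock repressor REV-ERB alpha, had signals of 1025, 1278, 989.9, 1602 and 1286 in lung at 4 weeks, against 87.6, 88.1, 113 and 262.5 in lung at 1 week. Heart signals of Nr1d1 were 772, 988, 1115, 1293 and 1113 at 4 weeks, against 233, 322, 588 and 464 at 1 week. Dbp, a clock output transcription factor, had signals of 3753, 3999.7, 2297, 3937 and 3128 in lung at 4 weeks, against 285, 413, 288 and 552.5 in lung at 1 week. Heart signals of Dbp were 5498, 3135, 4989, 3877 and 3845 at 4 weeks, against 1579.5, 963, 899 and 1143 at 1 week. Ages were separate for both genes in both organs. Every 1-week lung was below every 1-week heart for Dbp, while the ranges of Nr1d1 overlapped there. Differences were 1.72 ± 0.40 for Nr1d1 (adjusted p = 0.00695; 0.87 as labelled, adjusted p = 0.39) and 1.24 ± 0.32 for Dbp (adjusted p = 0.0132; 0.65 as labelled, adjusted p = 0.38). Per3 and Cry2, clock repressors, followed with 0.97 ± 0.15 and 0.98 ± 0.24 (adjusted p = 0.000337 and 0.00921), Per3 at 0.53 with the mean of its probe sets. Arntl, the clock activator BMAL1, fell by 1.82 in lung and by 1.65 in heart, and its difference was not called (adjusted p = 0.646). The hour of tissue collection is not given in the sources used here.

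The E-box CACGTG, to which BMAL1 and CLOCK bind, occurred in 5 of 17 clock gene promoters (29.4%), against 8.13% of promoters of tested genes. The D-box TTATGTAA, a site of DBP and related factors, occurred in 1 (5.88%), against 0.499%. The promoters of Per1 (chr11:69098699-69098948, plus strand) and Per3 (chr4:151044666-151044915, minus strand) are shown because both genes rose more in lung and each holds a different one of these elements, in capitals, E-box in Per1 and D-box in Per3 (RefSeq, GRCm38.p6, 250 bases before the start):
Per1: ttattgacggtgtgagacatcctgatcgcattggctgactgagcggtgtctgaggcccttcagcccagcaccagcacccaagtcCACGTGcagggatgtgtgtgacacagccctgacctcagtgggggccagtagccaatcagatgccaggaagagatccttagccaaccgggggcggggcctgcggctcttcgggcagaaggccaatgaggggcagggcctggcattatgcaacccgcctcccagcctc
Per3: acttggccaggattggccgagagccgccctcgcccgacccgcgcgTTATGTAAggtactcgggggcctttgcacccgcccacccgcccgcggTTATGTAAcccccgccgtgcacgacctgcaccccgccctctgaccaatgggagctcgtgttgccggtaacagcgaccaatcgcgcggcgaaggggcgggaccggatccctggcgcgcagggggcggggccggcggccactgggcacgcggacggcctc
Per1 rose by 2.04 in lung and 1.37 in heart on the log2 scale (difference 0.67; adjusted p = 0.0435).

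Of 22 tested glucocorticoid-responsive genes, 12 rose and 1 fell in lung, 13 rose and 3 fell in heart, and 10 rose in both, against 4.89% of all genes. Here the difference was positive for 6 and negative for 3, against 9.65% and 7.79% of all genes (median 0.31). Klf15, a transcription factor induced by glucocorticoids that governs amino acid and lipid use, had signals of 1237, 1479, 1437, 1326 and 1165 in lung at 4 weeks, against 29.9, 36.5, 40.3 and 44.3 in lung at 1 week. Heart signals of Klf15 were 1424.5, 2202, 1414, 1711 and 2197 at 4 weeks, against 235, 161, 334 and 154 at 1 week. Both organs rose without overlap, heart by 7.81-fold and lung by an uncertain amount, since its 1-week signals were near the background. The difference was 1.68 ± 0.27 (adjusted p = 0.000422; 0.87 as labelled, adjusted p = 0.32), and 1.05 with an offset of 64. Cebpb, a transcription factor of acute responses and metabolism, had signals of 4999, 5129, 5249, 4707.5 and 4270.3 in lung at 4 weeks and 4713, 5168, 4105 and 4594 in lung at 1 week. Heart signals of Cebpb were 2727, 5101, 3584, 4100.1 and 3594 at 4 weeks, against 628, 682, 857 and 732.5 at 1 week. Lung was level and heart rose 5.11-fold, with 4-week hearts overlapping the lungs. The difference was -2.28 ± 0.20 (adjusted p = 1.11e-06; -1.17 as labelled, adjusted p = 0.31). Errfi1, a feedback inhibitor of the EGF receptor, changed by 1.53 in lung and 0.06 in heart (1.48 ± 0.30; adjusted p = 0.00266).

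Heat shock and immediate early transcripts, which respond within minutes to stress or handling, were high in lung at 4 weeks and uneven between arrays. Hspa1b, an inducible heat shock protein 70, had signals of 15058, 11071, 15601.5, 7551 and 3376 in lung at 4 weeks, against 497, 676, 583 and 643 in lung at 1 week. Heart signals of Hspa1b were 402, 289, 473, 489.7 and 304 at 4 weeks and 416, 482, 403 and 488 at 1 week. Every 4-week lung lay above all others, over a wide range. The difference was 4.13 ± 0.46 (adjusted p = 1.38e-05), and Hspa1a, its near-identical neighbour, from which probes may not separate it, had 3.87 ± 0.69 (adjusted p = 0.000939). Of 14 tested immediate early genes, 7 rose and none fell in lung, against 13.5% and 14.3% of all genes. In heart 3 rose and 1 fell, against 13.4% and 17.9%. The difference was positive for 4 and negative for none, against 9.65% and 7.79% (median 0.45). As labelled 3 were positive, and the number was 2 to 4 over the other alternatives. Atf3 lost its call in 17 of 35 other settings and Jun in 6. Egr1 and Fos, transcription factors of the early response, had differences of 1.51 ± 0.31 and 1.34 ± 0.28 (adjusted p = 0.00285 and 0.00325).

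Immune cell genes moved in different ways by cell type. Of 19 tested macrophage and monocyte genes, 11 rose and none fell in lung, and 11 rose and 2 fell in heart. Of all genes tested, 13.5% rose in lung and 13.4% in heart. The difference was negative for 7 and positive for 2, against 7.79% and 9.65% of all genes (median -0.30). As labelled 3 were negative and 1 positive (median 0.12). C1qa, a complement subunit made by tissue macrophages, had signals of 974, 926, 897, 1165 and 979.7 in lung at 4 weeks, against 763, 757, 659 and 706.5 in lung at 1 week. Heart signals of C1qa were 2790.2, 2828, 3083.5, 2801 and 3131 at 4 weeks, against 778, 676, 811 and 852 at 1 week. It rose 1.36-fold in lung and 3.71-fold in heart, without overlap. The difference was -1.45 ± 0.13 (adjusted p = 1.42e-06), and C1qc, its partner subunit, had -1.70 ± 0.19 (adjusted p = 1.38e-05). Chil3, a chitinase-like protein of alveolar macrophages, went the other way. Its signals were 15354, 16019.7, 15178, 17476 and 18658 in lung at 4 weeks, against 2048, 1276.5, 1133 and 1365 in lung at 1 week. Heart signals of Chil3 were 2.6, 9.4, 95.4, 2.8 and 8.2 at 4 weeks and 4.8, 6.5, 6.1 and 7.8 at 1 week. It rose 11.5-fold in lung, and the 1 heart with a signal over 10 was 4-week replicate 3, a heart with traces of lung. The difference was 3.10 ± 0.53 (adjusted p = 0.000679), and 5.48 as labelled. Fabp5, a fatty acid binding protein of macrophages and endothelium, had 1.38 ± 0.11 (adjusted p = 5.44e-07; 0.90 as labelled, adjusted p = 0.084).

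Most genes of antigen presentation rose in both organs. Of 14 tested, 13 rose in lung and 12 in heart, 12 rose in both, against 4.89% of all genes. The difference was negative for 3 and positive for none, with a median of 0.01, and none was called as labelled. H2-Aa, a class II chain, had signals of 11655, 10978, 11105, 11499.8 and 10858 in lung at 4 weeks, against 4105, 4132, 5327 and 4657 in lung at 1 week. Heart signals of H2-Aa were 2858, 1588.5, 1715, 1948 and 1963 at 4 weeks, against 169, 299, 330.5 and 244 at 1 week. Lung was higher at both ages, but it rose 2.47-fold in lung and 7.38-fold in heart. The difference was -1.58 ± 0.24 (adjusted p = 0.000275), and -0.84 with the mean of its probe sets. As labelled it was 0.033 (adjusted p = 0.99). H2-Ab1, the partner chain, and Cd74, the invariant chain, had -1.95 ± 0.43 and -1.26 ± 0.26 (adjusted p = 0.0049 and 0.0028), and neither was called as labelled (-0.79 and 0.25, with adjusted p = 0.56 and 0.89). H2-Ab1 had -0.81 with the mean of its probe sets.

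Interferon-responsive genes rose in both organs for 14 of 22 tested members, against 4.89% of all genes. The difference was positive for 3 and negative for 3, against 9.65% and 7.79% of all genes (median -0.05). Rsad2, the antiviral protein viperin, had signals of 1189.9, 849.9, 954, 862 and 917 in lung at 4 weeks, against 2456, 4921, 4730.4 and 2652 in lung at 1 week. Heart signals of Rsad2 were 2798, 2966, 2685, 3687 and 3087 at 4 weeks, against 1514, 2154, 1374 and 1899.8 at 1 week. Lung fell 3.66-fold and heart rose 1.76-fold, without overlap. The difference was -2.69 ± 0.28 (adjusted p = 7.23e-06). Iigp1, an interferon-induced GTPase, and Cxcl9, an interferon gamma-induced chemokine, rose in heart and were not called in lung (-1.96 ± 0.25 and -2.26 ± 0.49; adjusted p = 5.08e-05 and 0.00424). Ifit3, another antiviral gene, rose more in lung (0.76 ± 0.18; adjusted p = 0.00689).

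Many T cell and natural killer cell genes rose in lung. Of 17 tested genes of T cells and natural killer cells, 10 rose and none fell in lung, and 3 rose and none fell in heart, where 13.5% of all genes rose in lung and 13.4% in heart. Differences were called for 2, or 11.8% against 17.4% of all genes. These were Gzma, a granzyme (2.07 ± 0.41; adjusted p = 0.00193), and Cd3d, a T cell receptor subunit (1.62 ± 0.38; adjusted p = 0.00649). The median of the list was 0.60, and as labelled 4 were positive. Of 14 B cell and plasma cell genes, 5 rose in lung and 1 in heart, and 1 difference was called (7.14%), that of Jchain, the joining chain of secreted antibody (1.42 ± 0.39; adjusted p = 0.0175). Jchain was not called in the fit of 38 arrays (adjusted p = 0.14) or without the 2 lung arrays with skeletal muscle signal (adjusted p = 0.075).

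Of 31 tested endothelial genes, 8 rose and 4 fell in lung, against 13.5% and 14.3% of all genes, and 4 rose and 10 fell in heart, against 13.4% and 17.9%. The difference was positive for 7 (22.6%, against 9.65%) and negative for 1 (3.23%, against 7.79%), with a median of 0.31. Tek, the angiopoietin receptor TIE2, had a signal of 4604 to 5790.4 in lung at 4 weeks, against 3052 to 3366 in lung at 1 week. In heart it was 1648 to 2119.6 at 4 weeks and 1992 to 2374 at 1 week. Lung ages were separate and heart ages overlapped, with a difference of 1.02 ± 0.13 (adjusted p = 6.41e-05). Cldn5, the endothelial claudin, fell by 0.29 in lung and fell by 1.34 in heart (1.05 ± 0.13; adjusted p = 2.73e-05), with 1.70 as labelled. Ednrb, an endothelin receptor, had 1.03 ± 0.19 (adjusted p = 0.00118), or 0.61 with the mean of its probe sets. Car4, the carbonic anhydrase of capillaries, rose in lung and was not called in heart (0.84 ± 0.20; adjusted p = 0.00801; 0.052 without the 2 lung arrays with skeletal muscle signal). Aplnr, the apelin receptor, fell in both organs and had no called difference (adjusted p = 0.699).

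Red cell and remaining lists completed the comparison. Alas2, the first enzyme of haem synthesis in red cell precursors, had signals of 2483, 2090.3, 2429, 2788 and 2494 in lung at 4 weeks, against 7809, 13923, 11599.8 and 6004 in lung at 1 week. Heart signals of Alas2 were 2631, 3049.9, 2290.5, 5427 and 3057 at 4 weeks and 4416.5, 3445, 3415 and 2172 at 1 week. It fell in lung without overlap and was not called in heart. The difference was -1.87 ± 0.37 (adjusted p = 0.00203). All 3 tested red cell markers fell in lung with called negative differences, of which 1 was called as labelled. Among them Tspo2 lost its call in 19 of 35 other settings. The summed signal of 5 such markers was 2579.6 to 3114 in lung at 4 weeks and 7771 to 20269.6 in lung at 1 week. In heart it was 2872 to 6052 at 4 weeks and 2819 to 5408 at 1 week. Of 21 tested enzymes of histone and DNA methylation, 11 fell in lung, 12 in heart and 10 in both, against 14.3%, 17.9% and 7.3% of all genes. The difference was positive for 3 and negative for 1, and this 19% is near the 17.4% of all genes (median 0.09). Kdm6b, a histone demethylase, was level in lung and fell in heart (0.75 ± 0.14; adjusted p = 0.00116; 0.062 with the mean of its probe sets).

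Among the 12 genes with the largest changes in the same direction in both organs, Klf15, Mest and Spon2 had a called difference and the others did not. The call of Spon2 (-0.72) was lost in 23 of 35 other settings, that of Klf15 in 1 and that of Mest in none. Zbtb16, a zinc finger transcription factor that responds to glucocorticoids, rose by 4.55 in lung and 3.47 in heart on the log2 scale (difference 1.07 ± 0.38; adjusted p = 0.0639). Klf9, a transcription factor induced by glucocorticoids and thyroid hormone, rose by 2.56 in lung and 2.32 in heart (0.24 ± 0.16; adjusted p = 0.351). Xdh, xanthine dehydrogenase, rose by 2.74 in lung and 3.40 in heart (-0.66 ± 0.30; adjusted p = 0.147), and Lrat, which stores retinol as esters, by 4.23 in lung and 3.22 in heart (1.02 ± 0.35; adjusted p = 0.0538). Tnc, the matrix protein tenascin C, fell by 4.01 in lung and fell by 3.05 in heart (-0.96 ± 0.47; adjusted p = 0.185), and Fbn2, the fetal fibrillin, fell by 3.06 in lung and fell by 2.96 in heart (-0.10 ± 0.28; adjusted p = 0.86). These adjusted p-values did not pass the threshold, which does not show equal change in both organs. Of 35 other settings, the difference was called in 11 for Zbtb16, 10 for Lrat, 4 for Tnc, 3 for Xdh, 1 for Klf9 and none for Fbn2.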

How the data were processed

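Whole-organ RNA was measured on Affymetrix mouse arrays, 5 per group as deposited. The deposited values are linear intensities per probe set, with a trimmed mean of 500 after trimming 2% at each end of every array. The submitters' processing notes name RMA and Partek 6.6 without giving their role, and the summary method is not given in the sources used here. Groups came from the sample titles. The design text gives 5 animals for each kidney and lung group and does not mention heart, so p-values there measure the spread between these samples, which may be technical.

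Of 45101 probe sets, 34958 carried 1 gene symbol, 932 several and 9211 none, and 34754 were matched by Entrez ID to RefSeq names. One probe set, that with the highest mean over all 40 arrays, stood for each of 18194 genes. The deposited intensities were turned into log2(intensity + 16), and the highest group mean of a gene had to reach the 40th percentile of all deposited values (117.9). A linear model over the 4 groups was fitted with limma 3.58.1 (in R 4.3.3), was tested on simulated data, and used Benjamini-Hochberg adjustment at 0.05. Figures used Python 3.11.15 and matplotlib 3.10.9.

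Members and the 36 gene lists were chosen with earlier results of these data known. Named genes were the 12 largest called differences per direction, the 8 largest per direction among opposite changes, up to 5 called members per list, the 6 largest common changes per direction and a fixed set. Alternatives were the arrays as labelled, all 38 arrays in 1 fit, the offset, filter, normalization, probe set choice, variance model, blocks and leaving out arrays. Lung and heart arrays of equal replicate number were not treated as paired, since the 8 such pairs within an age correlated at -0.13 to 0.075. The sample descriptions hold another number, and the 5 pairs within an age that share it correlated at -0.11 to 0.023. The labels give no shared animal. Promoters came from RefSeq, build GRCm38.p6, for 11420 of 14252 tested genes, and 9 motifs were searched in the list promoters.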

Additional observations from a re-analysis of the deposited data

Results flagged for a closer look

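Single arrays stood apart from their group for 7 genes among the 164 groups of values of the described genes, where chance flags about 1 group in 20. Myh7 had 1182 on 1-week heart replicate 1, against 8297 to 9007 on the others. On 4-week heart replicate 1, Slc2a4 was low at 6329.5, against 9936 to 11336, and Acta2 was high at 16884, against 13562 to 14242. Plagl1 had 1999.7 on 4-week heart replicate 2, against 3389 to 4061. Chil3 had 95.4 on 4-week heart replicate 3, against 2.6 to 9.4. In lung, Kcnd2 had 4.7 on 4-week replicate 4, against 27.8 to 42.2, and Igf1 had 4465 on 1-week replicate 1, against 3597 to 3672.

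The change with age differed between lung and heart by the test of the difference itself for 2486 genes. Among those described, the difference of log2 changes was positive at 7.87 for Tnni1, 4.13 for Hspa1b, 3.81 for Lpar3, 3.41 for Bpifa1, 3.10 for Chil3, 3.04 for Inmt, 2.87 for Kcne1, 2.28 for Scd2, 2.21 for Myh7, 1.85 for Postn, 1.72 for Nr1d1, 1.68 for Klf15, 1.68 for Pdgfra, 1.42 for Plagl1, 1.33 for Eln, 1.24 for Dbp and 0.75 for Pdpn. It was negative at -4.47 for Agt, -3.60 for Rpl3l, -3.41 for Adh1, -3.34 for Tgfbi, -3.32 for Acta1, -2.69 for Rsad2, -2.28 for Cebpb, -2.14 for Kcnd2, -1.87 for Alas2, -1.83 for Slc2a4, -1.77 for Fgf18, -1.77 for Dlk1, -1.69 for Oxct1, -1.64 for Acta2, -1.58 for H2-Aa, -1.45 for C1qa, -1.20 for Cox7a1, -1.14 for Ghr, -1.10 for Cs, -0.88 for Igf1 and -0.58 for Mest.

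The 2 arrays outside the comparison carried strong signals of the other organ and weak ones of the labelled organ. Sftpc was at 27187 on the array labelled 1-week heart replicate 5, against 125 to 1072 on the other 1-week hearts. Myh6 was at 36022 on the array labelled 1-week lung replicate 4, against 611 to 1868 on the other 1-week lungs. The heart-labelled array had Myh6 at 2396 and the lung-labelled array had Sftpc at 1982.5.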

How the results depend on the processing

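The counts of called genes kept within 1.5 times of those reported under most settings. Total differences were 1635 without the 2 lung arrays with skeletal muscle signal. Negative differences were 667 with all 20 arrays as labelled and 704 without those 2 lung arrays, without which 2469 genes changed in lung. Opposite directions were called for 123 genes as labelled, 127 without the 2 lung arrays, 152 with median centring and 396 with array weights. Leaving out 1 array at a time gave 2064 to 3068 differences, 1128 to 1701 positive, 911 to 1367 negative, 3280 to 4440 changes in lung, 4006 to 4730 in heart and 184 to 343 in opposite directions. Each highest count came without 1-week heart replicate 1, and the lowest total came without 1-week lung replicate 3. Leaving out heart replicate 1 at both ages, added after seeing the data as were the settings without 2 lung or 2 heart arrays, gave 3215 differences. The causes were not tested.

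Where the reported fit or the alternative called the difference, directions reversed for 9 named genes. As labelled the differences were 0.033 for H2-Aa, 0.25 for Cd74, -0.18 for Kcne1, -1.25 for Mb, 0.020 for Lyz2, 0.37 for Lyve1 and 0.39 for Col4a4. Mbp was at -0.43 with the mean of its probe sets and Gsta3 at 0.79 with an offset of 64. Others, such as Igf2 (-0.50 to 0.93) and Sftpc (-0.19 to 2.40), changed sign in settings that did not call them. Of 174 named genes, 111 kept direction and call as labelled, 55 lost the call and 1 gained it.

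With the replicate number as a block, 2173 differences were called, 1207 positive and 966 negative, with 3792 changes in lung, 4323 in heart and 225 in opposite directions. Of 175 named genes 165 kept their call, 9 lost it and 1 gained it. The labels do not say that equal numbers share an animal, and the check of the pairing did not show it. Deviations of the 8 same-numbered pairs of a lung and a heart of 1 age correlated at -0.13 to 0.075, and those of the 33 pairs of unequal number at -0.12 to 0.13. All 24 same-numbered pairs between groups, ages and organs mixed, lay at -0.15 to 0.47. With the number in the sample description as a random block, 2268 differences were called, and 170 of 175 named genes kept their call. The 5 pairs of 1 age that share this number correlated at -0.11 to 0.023.

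Signals near the background limit the dim genes, whose changes the offset shrinks. Quantile normalization and median centring each moved the median difference of all genes by -0.03.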

Other observations

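Promoters of genes with a called difference held the CCAAT, E-box and CHR letters about as often as those of all tested genes. The CCAAT letters occurred in 36% of positive and 37.1% of negative genes, against 35.7% of all tested. The E-box letters CACGTG occurred in 9.49% of positive and 7.21% of negative genes, against 8.13%, and the CHR letters TTTGAA in 10.9% of each, against 10.9%. These are descriptions of letters in the 250 bases before the start, on both strands.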
